A study of Mus musculus with 6 samples.

Results

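The 10 genes described here mark the differentiated epithelium of the lung. They were chosen by name, with earlier results of these data known. Every probe set annotated to 1 of these symbols alone was taken, which gave 15 probe sets of 45037 and 10 genes of 18193. They are the surfactant protein genes Sftpa1, Sftpb, Sftpc and Sftpd, the surfactant processing genes Napsa and Abca3, the transcription factor gene Nkx2-1, the water channel gene Aqp5, the club cell gene Scgb1a1 and the lysozyme gene Lyz2. Sftpb and Aqp5 fell in cells that expressed the miR-200b-200a-429 cluster, and the other 8 genes did not pass the test in either direction.

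The cells were 344SQ, a line derived as a mass population from a subcutaneous tumor of a mouse with lung adenocarcinoma. The donor mouse, number 344, had the genotype p53R172H∆g/+ K-rasLA1/+, so both groups carry these alleles, and no age is given. One group of cells had been transduced with a lentivirus for the miR-200b-200a-429 cluster and the other with the control vector, and GFP-positive pools of both were kept in puromycin. Each group gave 3 cultures with 1 array each, and the cultures of both carry the letters A, B and C. Whether the cultures came from separately transduced pools is not stated, so the tests weigh differences against the spread of these cultures alone, and the effect of the cluster cannot be told apart from any other stable difference between the pools. The comparison asks how lung genes differ when this microRNA cluster is forced on. The level of the microRNAs themselves was not analysed here.

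Values are log2 signals after quantile normalization, and a difference is the miR-200 mean minus the control mean, with the standard error (SE) of the limma fit. Adjusted p-values are Benjamini-Hochberg values across the 45037 probe sets, and a probe set counts as called at an adjusted p under 0.05. There were no detection calls in the table used, so the brightest trp control probe set, which detects a bacterial transcript and read 5.28 at its highest, served as a gauge of background. On 2 arrays, miR-200 A and control B, values departed from the other arrays of the group in a shared way: their deviations from the group means correlated at 0.71 across the brightest 27022 probe sets, a correlation across probe sets and not across samples.

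The air spaces of the lung are lined by flat type 1 cells, which carry out gas exchange, and cuboidal type 2 cells, which make surfactant. Surfactant is a film of phospholipid and protein that keeps the air spaces open. The type 2 cell packs it into lamellar bodies, where the small hydrophobic proteins B and C are cut from larger precursors. Nkx2-1, together with forkhead and C/EBP factors, is known to switch on the surfactant genes, and many human lung adenocarcinomas retain this program. The miR-200 family is known to hold down Zeb1 and Zeb2, repressors of epithelial genes.

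The microRNAs that were forced on fall into families by their seed, the stretch from base 2 to base 8 that recognizes targets. The mature 3p strands of the cluster are shown with the seed in capitals. The 5p strands, which have other seeds, are not shown.
mmu-miR-200a-3p: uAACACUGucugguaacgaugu
mmu-miR-200b-3p: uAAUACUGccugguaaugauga
mmu-miR-429-3p: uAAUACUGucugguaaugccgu
The strands of miR-200b and miR-429 share the seed AAUACUG, and that of miR-200a is AACACUG. The sequences are RefSeq's for build GRCm38.p6, where they lie on the minus strand at chr4:156054911-156054932 for miR-200a-3p, chr4:156055685-156055706 for miR-200b-3p and chr4:156053916-156053937 for miR-429-3p.

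The promoter of Sftpb is a textbook case of Nkx2-1 and forkhead control, so the 250 bases before its annotated start are shown, with 2 other members for comparison. Capitals mark the Nkx2-1 core CTCAAG and the forkhead forms TGTTTAC and TGTTTGC on either strand. Windows are RefSeq's for build GRCm38.p6, all on the plus strand, at chr6:72304360-72304609 for Sftpb, chr14:41131538-41131787 for Sftpa1 and chr15:99590778-99591027 for Aqp5.
Sftpb: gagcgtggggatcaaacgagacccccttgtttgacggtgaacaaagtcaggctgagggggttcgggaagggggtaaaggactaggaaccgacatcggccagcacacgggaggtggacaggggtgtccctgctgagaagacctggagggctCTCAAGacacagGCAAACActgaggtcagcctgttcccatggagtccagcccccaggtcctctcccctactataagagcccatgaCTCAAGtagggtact
Sftpa1: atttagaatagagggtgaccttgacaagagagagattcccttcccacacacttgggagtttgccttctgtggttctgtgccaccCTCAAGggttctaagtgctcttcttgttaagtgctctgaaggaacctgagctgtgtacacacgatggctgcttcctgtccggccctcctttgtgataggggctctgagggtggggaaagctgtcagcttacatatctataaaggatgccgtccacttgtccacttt
Aqp5: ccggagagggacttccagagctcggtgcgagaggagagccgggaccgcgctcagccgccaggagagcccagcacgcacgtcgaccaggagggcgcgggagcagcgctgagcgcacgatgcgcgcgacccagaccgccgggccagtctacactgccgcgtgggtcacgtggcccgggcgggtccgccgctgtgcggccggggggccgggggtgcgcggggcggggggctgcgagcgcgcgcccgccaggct
The Sftpb window holds CTCAAG at 100 to 95 and at 15 to 10 bases before the start, and the reverse complement of TGTTTGC at 88 to 82. Of 32851 windows of this length, each before an annotated start, 13.3% hold CTCAAG, 3.17% TGTTTAC and 4.3% TGTTTGC. At least 2 copies of CTCAAG occur in 0.998% of windows, and these with either forkhead form in 0.107%, a combination chosen after the Sftpb window was seen. Sftpa1 holds 1 copy of CTCAAG, at 166 to 161, and the Aqp5 window, with a GC content of 78.4%, holds none of the motifs searched.

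Windows were given for 6 of the 10 members, the others being Abca3, Nkx2-1 and Lyz2. The E-box CAGGTG, the known binding core of Zeb1, was also searched on both strands, and does not overlap the other motifs here. It occurs in 17.2% of all windows and in 2 of the 6 member windows, Abca3 at 18 to 13 bases before the start and Nkx2-1 at 205 to 200. A related form, CACCTT, was found in 0 of the 6 and in 13.0% of all windows. These matches are letters in a sequence and not measured binding.

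Sftpb encodes surfactant protein B, the small protein without which lamellar bodies do not form and breathing fails at birth. Its single probe set read 12.38, 13.01 and 12.34 in control A, B and C, and 6.57, 6.55 and 6.51 in miR-200 A, B and C. The control arrays were all high, with control B the highest, and the miR-200 arrays lay within 0.1 of each other, far below every control. The means were 12.58 ± 0.38 and 6.54 ± 0.03 (SD, n = 3 each), a difference of -6.03 ± 0.22 (SE; limma, adjusted p = 0.00249). On the linear scale Sftpb was 65.6-fold lower, and its miR-200 mean still lay above the background gauge of 5.28. Only 5 of the 18193 genes had a more negative difference, so Sftpb ranked as number 6 among falls. In RNA from whole cultures, fewer cells with a transcript and less of it per cell cannot be told apart, for Sftpb or any other gene here.

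Aqp5 encodes a water channel found on the apical face of type 1 cells and in airway glands. Its single probe set read 12.36, 12.23 and 12.34 in the control arrays and 10.91, 10.85 and 10.79 in the miR-200 arrays. Both groups were tight and did not overlap, and the gene stayed far above the background gauge after it fell. The means were 12.31 ± 0.07 and 10.85 ± 0.06 (SD, n = 3 each), a difference of -1.46 ± 0.12 (limma, adjusted p = 0.0148), or 2.75-fold lower. This difference is rank 425 among falls. The Aqp5 call was lost in limma when any of 4 arrays was left out, with adjusted p = 0.0962 without control A, 0.0897 without control C, 0.105 without miR-200 B and 0.0965 without miR-200 C. Its difference ranged only from -1.50 to -1.43 when each of the 6 arrays was left out. Without both control B and miR-200 A it was -1.53 (adjusted p = 0.063), whereas Sftpb kept its call there at -5.83 (adjusted p = 0.048).

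These are the only calls among the members: 2 of 15 member probe sets passed, both lower, against 0.744% of all probe sets, of which 0.486% were lower and 0.258% higher. By gene, 2 of 10 members passed, both lower, against 0.945% of all genes, of which 0.671% were lower and 0.275% higher. With the limma p taken unadjusted and under 0.05, 5 member probe sets were lower and 0 higher. Of all 45037 probe sets, 3122 were lower and 3232 higher, 14.1% in both directions together. By gene, 3 members were lower and 0 higher. Of all 18193 genes, 1541 were lower and 1155 higher, 14.8% in both directions together. The groups did not overlap in 6 of the 15 member probe sets, 5 lower and 1 higher, against 21.3% of all probe sets, 9.76% lower and 11.6% higher. By gene they did not overlap in 3 members lower and 1 higher, against 23.5% of all genes, 12.1% lower and 11.4% higher. The median difference of the 10 genes was -0.19, and that of all genes was 0.00. Because the members were chosen with earlier results of these data known, these shares describe the members and do not test for an excess.

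**Figure D1:**
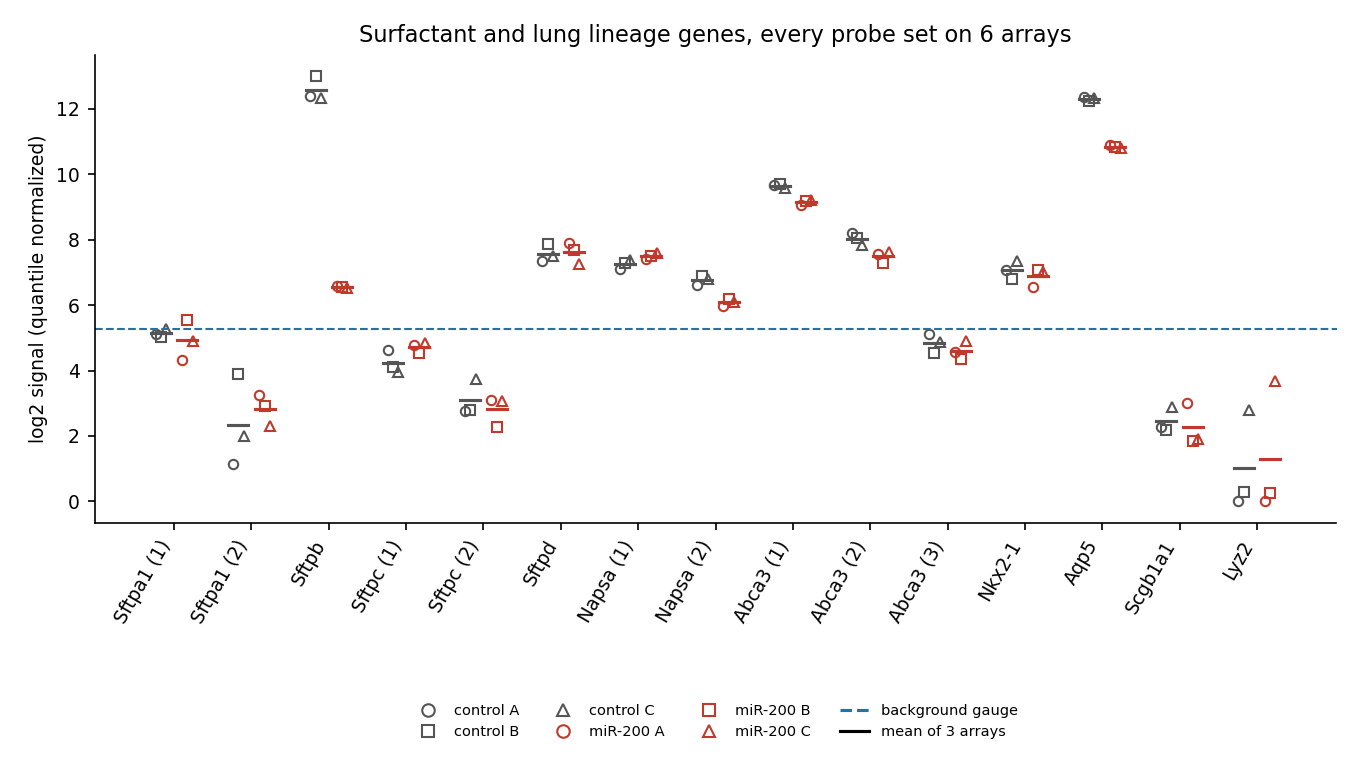
Log2 signal of every member probe set on each of the 6 arrays (grey, control vector; red, miR-200; the marker shape gives the letter of the culture; bars are means of 3 arrays; the dashed line is the background gauge at 5.28; numbers in brackets tell the probe sets of a gene apart, brightest first). Sftpb drops from 12.58 to 6.54 and Aqp5 from 12.31 to 10.85, and the other members were not called: the Abca3 groups are apart on 2 probe sets, the Napsa probe sets go opposite ways, and 4 genes lie under the gauge.

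The other surfactant protein genes did not pass. Sftpd encodes a collectin that binds microbes in the air spaces, and it read 7.35, 7.87 and 7.50 in the control arrays and 7.90, 7.69 and 7.27 in the miR-200 arrays. The groups overlapped, with control B and miR-200 A at the top of each, and the difference was 0.05 ± 0.23 (adjusted p = 0.955; unadjusted 95% confidence interval -0.53 to 0.63). Sftpc encodes surfactant protein C, the most specific product of type 2 cells. Its brighter probe set read 4.62, 4.12 and 3.95, then 4.79, 4.53 and 4.85, under the gauge on all 6 arrays. Its other probe set ranged from 2.27 to 3.75, and neither passed (adjusted p of 0.394 and 0.786 in limma).

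Sftpa1 encodes surfactant protein A, another collectin. Its brighter probe set read 5.12, 5.02 and 5.28 in the control arrays and 4.33, 5.55 and 4.91 in the miR-200 arrays, around the gauge and with overlap. The difference was -0.21 ± 0.33 (adjusted p = 0.825), and the dimmer probe set, between 1.13 and 3.89, had a difference of 0.49 ± 0.74 (adjusted p = 0.816). With both group means under the gauge, no fold is given for Sftpa1 or Sftpc. Of the 4 surfactant protein genes, Sftpb and Sftpd thus had group means above the gauge and Sftpa1 and Sftpc did not.

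The genes that process and pack surfactant showed smaller differences, none of them called. Abca3 encodes the transporter that carries phospholipid into lamellar bodies. Its brightest probe set read 9.67, 9.69 and 9.59 in the control arrays and 9.06, 9.17 and 9.22 in the miR-200 arrays. Every miR-200 array lay below every control, and the difference was -0.50 ± 0.12 (adjusted p = 0.17; unadjusted p = 0.00711 in limma). The next probe set of Abca3 also separated the groups, with 7.83 to 8.20 in the control arrays, 7.29 to 7.62 in the miR-200 arrays and a difference of -0.54 ± 0.16 (adjusted p = 0.249). The dimmest Abca3 probe set, under the gauge in both groups, overlapped at a difference of -0.24 ± 0.23 (adjusted p = 0.694).

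Napsa encodes napsin A, an aspartic protease that trims the precursor of surfactant protein B and serves as a diagnostic marker of lung adenocarcinoma. Its probe sets disagreed. The brighter one read 7.11, 7.30 and 7.39 in the control arrays and 7.40, 7.51 and 7.58 in the miR-200 arrays, a difference of 0.23 ± 0.14 (adjusted p = 0.524). The groups just failed to overlap there, with 7.39 for control C and 7.40 for miR-200 A. The other probe set went the opposite way, from 6.62, 6.89 and 6.79 to 5.98, 6.20 and 6.08, a difference of -0.68 ± 0.14 (adjusted p = 0.126). This second probe set passed only in the setting without the dimmest 40% of probe sets, so no direction is given for the gene.

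Nkx2-1, the homeodomain factor that specifies lung identity, did not pass. It read 7.06, 6.81 and 7.36 in the control arrays and 6.55, 7.08 and 7.01 in the miR-200 arrays. The groups overlapped and the means were 7.07 ± 0.28 and 6.88 ± 0.28 (SD, n = 3 each), both above the gauge. The difference was -0.19 ± 0.22 (adjusted p = 0.746), with an unadjusted 95% interval of -0.75 to 0.36. Leaving out miR-200 A gave -0.03, and leaving out control B gave -0.33. Whether Nkx2-1 played a part in the difference of Sftpb was not tested.

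The remaining members mark other lung cells and were near or under background. Scgb1a1 encodes the secretory protein of club cells, the secretory cells of small airways, and it ranged from 2.17 to 2.88 in the control arrays and from 1.85 to 3.02 in the miR-200 arrays (adjusted p = 0.875). Lyz2 encodes the lysozyme of macrophages and of type 2 cells. It read 0.00, 0.28 and 2.79 in the control arrays and 0.00, 0.25 and 3.67 in the miR-200 arrays, with the deposited value at exactly 0 on 2 arrays. Its difference of 0.28 had an interval of -2.85 to 3.42, so this probe set carries little information here.

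Set against the label of lung adenocarcinoma cells, the markers divide. The type 2 markers Sftpc and Sftpa1 and the club cell marker Scgb1a1 were under the gauge in both groups. Sftpb, Aqp5, Abca3, Napsa, Sftpd and Nkx2-1 lay above the gauge in both groups. In all, 4 of the 10 genes had both group means under the gauge and 6 had both above it. Of all 18193 genes, 4501 had both under it and 13037 both above, so the split is not particular to the members.

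**Figure D2:**
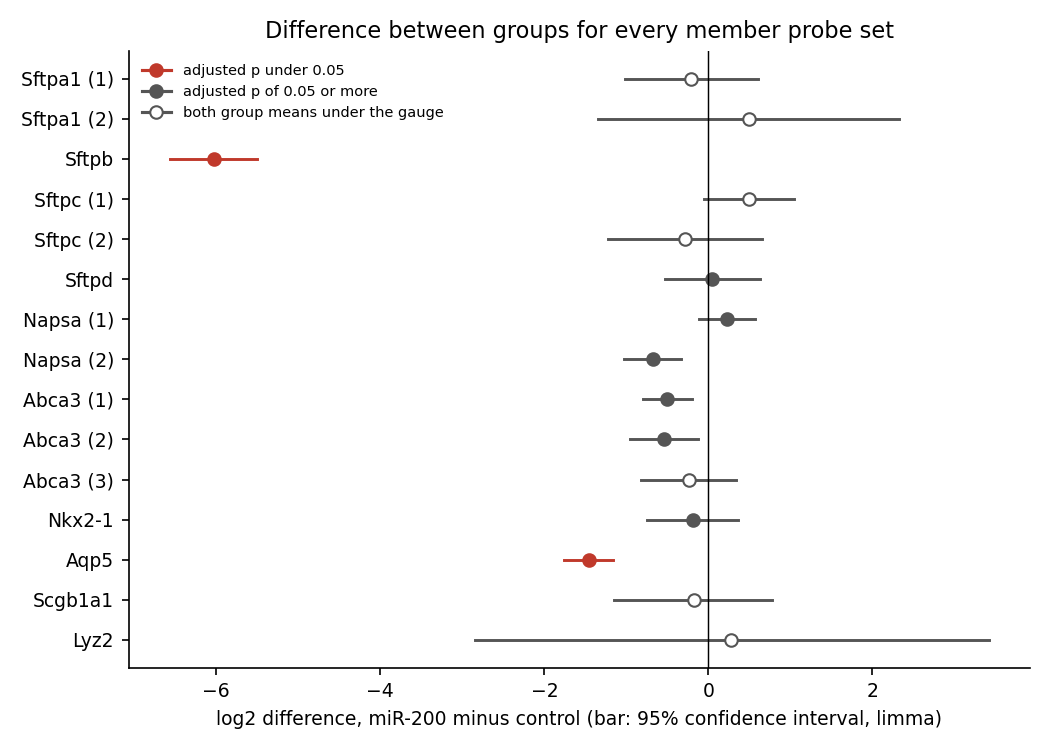
Log2 difference, miR-200 minus control, for each of the 15 member probe sets, with unadjusted 95% confidence intervals from limma (red, adjusted p under 0.05; open points, both group means under the gauge). The intervals of Sftpb (-6.57 to -5.50) and Aqp5 (-1.76 to -1.16) lie furthest below 0, and the Lyz2 interval is the widest.

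Other genes of lung cell types were taken from lists written from general knowledge, with earlier results of these data known. Of the 82 genes measured 1 passed, Muc1, which rose, against 0.945% of all genes called. That share, and 14.8% of all genes with an unadjusted limma p under 0.05, also stand beside the counts of each list below. Muc1 encodes a membrane mucin of epithelial surfaces that type 2 cells also carry. It read 9.22, 8.90 and 8.99 in the control arrays and 11.24, 10.84 and 10.93 in the miR-200 arrays, so all miR-200 values were higher. The difference was 1.97 ± 0.17 (adjusted p = 0.0171), or 3.92-fold higher, opposite in direction to Sftpb. The call was lost without any one of 5 arrays, miR-200 A being the exception (adjusted p from 0.0669 to 0.104 in limma), without both control B and miR-200 A (1.78, adjusted p = 0.0707), and with the culture letter as a replicate block (adjusted p = 0.181).

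Among 17 genes of surfactant lipid synthesis and type 2 cells, 1 was called higher and 0 were called lower. By the unadjusted limma p, 2 of the 17 were higher and 4 lower, where 1155 of all 18193 genes were higher and 1541 lower. Differences were below 0 for 12 of the 17, with a median of -0.40. Over all 18193 genes, 9008 differences were below 0 and the median was 0.00. Ctsh encodes cathepsin H, another protease of surfactant protein B processing, and it read 11.60, 12.26 and 11.54 in the control arrays and 10.64, 9.54 and 9.34 in the miR-200 arrays. All miR-200 values lay below all control values, by -1.96 ± 0.41, without passing (adjusted p = 0.131). Chpt1, whose product makes phosphatidylcholine, the main surfactant phospholipid, read 10.71, 11.18 and 10.87, then 9.75, 9.22 and 9.13. Its difference was -1.55 ± 0.23 (adjusted p = 0.0665), and the groups did not overlap on any of its 4 probe sets. Chpt1 passed in 5 of 15 alternative settings and Ctsh in 3, for both genes including a 2-level term for control B and miR-200 A (adjusted p = 0.02 for Chpt1 and 0.0232 for Ctsh in limma). Those arrays were singled out from the expression values themselves, so p-values with that term are too small by an unknown amount.

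Of 15 type 1 genes besides Aqp5, 0 passed and the median difference was -0.28. By the unadjusted limma p, 4 of the 15 were lower and 1 higher, where 1541 of all 18193 genes were lower and 1155 higher. Ager, the classical type 1 marker, was 1 of 3 genes under the gauge in both groups, and 11 of the 15 had both group means above it. The largest differences without overlap were in Sema3e, a semaphorin gene, with 11.83, 12.19 and 11.81 in the control arrays and 11.13, 10.25 and 10.30 in the miR-200 arrays (-1.38 ± 0.29, adjusted p = 0.129), and in the chloride channel gene Clic5 (-1.26 ± 0.35, adjusted p = 0.223). Its other probe sets disagreed in size, at least 9.8-fold lower on one, at least 3.97-fold lower on the next and a difference of -0.31 with overlap on the last, and none passed.

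Airway genes did not pass either. Of 13 club and goblet cell genes 0 passed and 7 were under the gauge in both groups, among them Scgb3a2, Cyp2f2, Muc5b and Spdef, and by the unadjusted limma p 0 were lower or higher. Spdef, a factor of goblet cells, did not pass (adjusted p = 0.405), and no fold is given for it. Gabrp, a GABA receptor gene of airway epithelium, ranged from 8.81 to 9.45 in the control arrays and from 9.47 to 9.77 in the miR-200 arrays (0.44 ± 0.21, adjusted p = 0.432). The other Gabrp probe set, above the gauge in both groups, overlapped at a difference of 0.64 ± 0.30 (adjusted p = 0.416). Of 10 ciliated and basal cell genes 0 passed, and 1 was lower by the unadjusted limma p. That was Krt14, a basal cell keratin gene, with 8.09 to 8.91 in the control arrays and 5.38 to 6.99 in the miR-200 arrays (-2.27 ± 0.49, adjusted p = 0.14). Its dimmest probe set by mean had a miR-200 mean under the gauge and was at least 2.45-fold lower. Another, above the gauge in both groups, overlapped at a difference of 0.10. The ciliated cell gene Dnah5 differed by -0.33 ± 0.16 (adjusted p = 0.444).

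**Figure D3:**
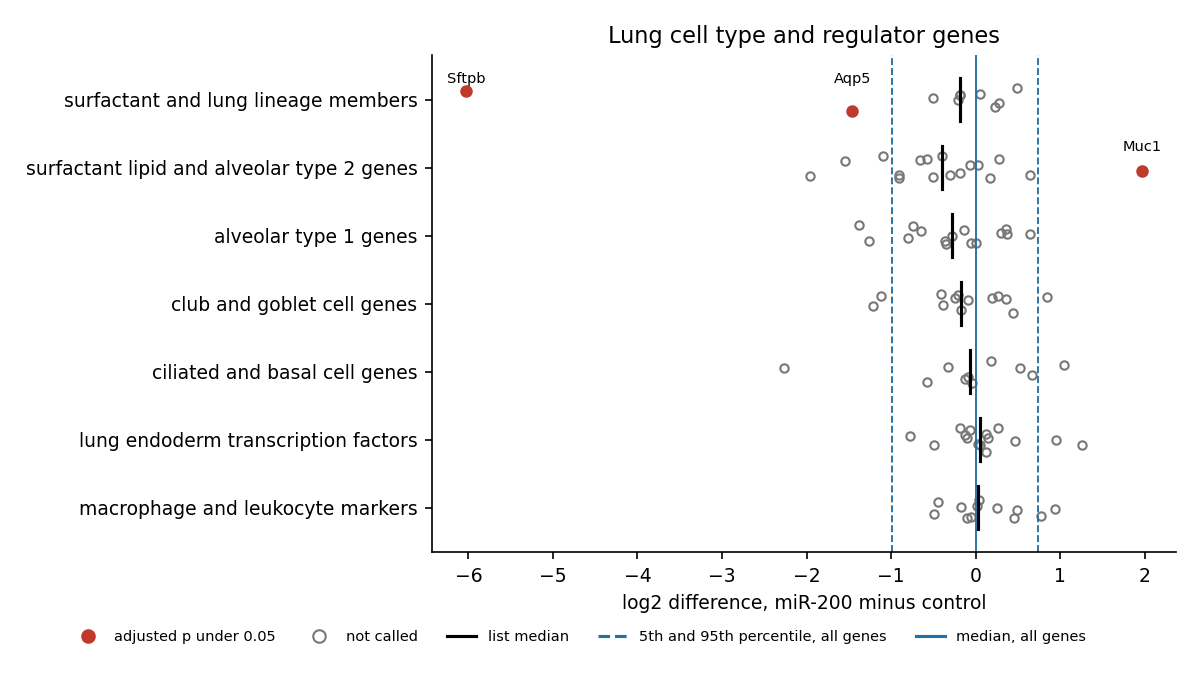
Log2 difference, miR-200 minus control, of the 10 members and of the genes of 6 lists, each gene by its brightest probe set (red, adjusted p under 0.05; black bars, list medians; blue lines, the 5th percentile, median and 95th percentile of all 18193 genes at -0.99, 0.00 and 0.74). Sftpb lies alone at the left, and Aqp5 and Muc1 are the other called genes.

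Transcription factors of endoderm, some of which act with Nkx2-1, did not pass. Of 15 such genes measured, with Hnf4a of gut and liver among them, 0 were called. By the unadjusted limma p 1 was higher, and the median difference was 0.05. Foxa1, a forkhead factor of endoderm, read 11.77, 11.41 and 11.81 in the control arrays and 12.18, 12.04 and 12.14 in the miR-200 arrays. All its miR-200 values were above the control values, and the difference of 0.46 ± 0.16 did not pass (adjusted p = 0.294). Foxa2, its close relative, read 11.08, 11.38 and 11.05 and then 11.17, 11.04 and 11.01, a difference of -0.10 ± 0.15 (adjusted p = 0.819).

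Cebpa encodes a C/EBP factor of type 2 cells and liver. It read 8.46, 10.72 and 8.22 in the control arrays and 9.61, 7.80 and 7.64 in the miR-200 arrays, with control B and miR-200 A the highest of each group. The groups overlapped at a difference of -0.78 ± 0.87 (adjusted p = 0.737). Gata6, a zinc finger factor of endoderm, was also highest on those arrays, at 11.48 and 10.52 against 9.92 to 10.22 elsewhere, and differed by -0.49 ± 0.41 (adjusted p = 0.654), or by -0.07 without control B and -0.71 without control C. Hnf4a, a nuclear receptor known from gut and liver rather than normal lung, read 11.38 to 11.80 over the 6 arrays and differed by -0.13 ± 0.15 (adjusted p = 0.739). Sox2, a factor of the conducting airways, had both group means under the gauge, and Grhl2, an epithelial factor, had a difference of 0.95 ± 0.40 on its brightest probe set (adjusted p = 0.373) and of -0.28 on another above the gauge. The first ranged from 0.50 without control B to 1.23 without control A, so no direction is given for Grhl2.

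**Figure D4:**
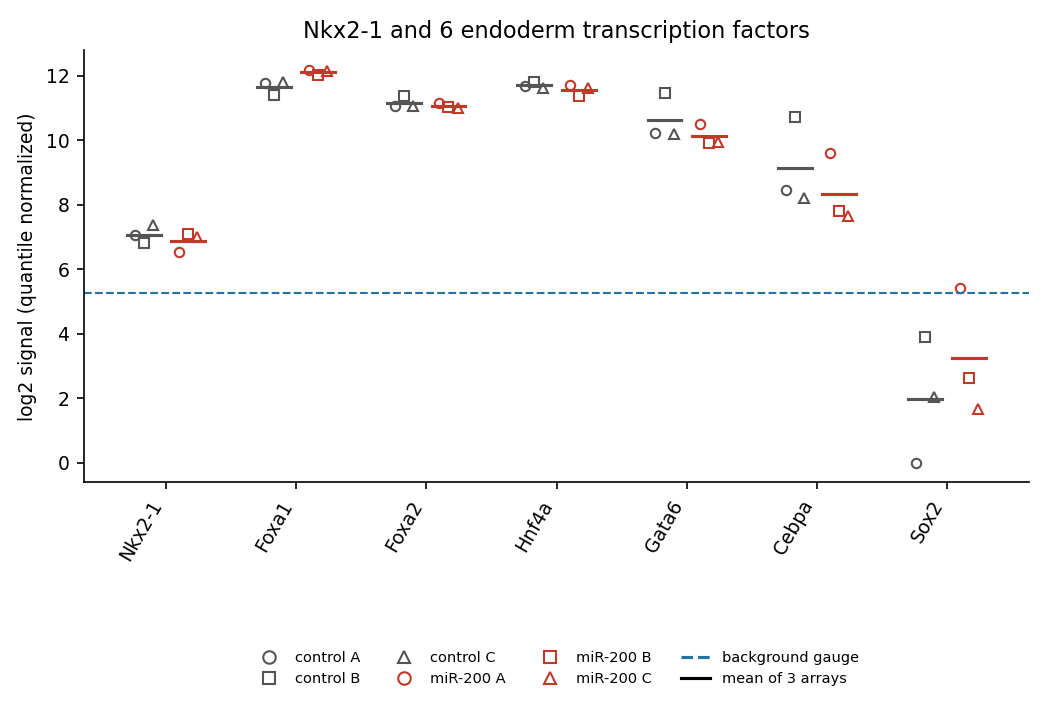
Log2 signal of Nkx2-1 and of 6 endoderm transcription factors on each array, with the same colours, markers and gauge line as in the plot of the members (levels of different genes are not comparable, since each probe set has its own response). The groups separate without overlap only for Foxa1. Cebpa, Gata6, Foxa2, Hnf4a and Sox2 are each highest on control B and miR-200 A within each group.

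Since Lyz2 is also a macrophage gene, markers of macrophages and leukocytes were examined. Of 12 measured 0 passed, 1 was higher by the unadjusted limma p, and the median difference was 0.03. That was Csf1r, the receptor of a macrophage growth factor, with 9.34 to 9.68 in the control arrays and 9.89 to 9.94 in the miR-200 arrays (adjusted p = 0.264). The next Csf1r probe set overlapped at a difference of 0.22 (adjusted p = 0.615). The dimmest separated the groups, with a control mean under the gauge (adjusted p = 0.35). The summed linear signal of the list was 4249, 3500 and 4258 in control A, B and C, and 6890, 4350 and 4399 in miR-200 A, B and C. Cd14, also on the list, read 11.86 on miR-200 A and from 9.54 to 9.97 on the other arrays. Its groups overlapped (adjusted p = 0.627 in limma). Itgam, Itgax and Tyrobp were the 3 genes under the gauge in both groups. The other 9 of the 12 had both group means above it, among them Mrc1 (10.36 in the control arrays) and Cd14 (9.73). Lyz2 itself was at or near 0 on 4 of 6 arrays. Whether such cells played a part in any member's value was not tested.

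To describe the pattern of Sftpb across the arrays, the 3 genes with the most similar profile were taken by Pearson correlation over the 6 arrays, among 3578 other genes whose mean over the 6 arrays was above the gauge and whose values spanned at least 1. They were Sptssb (r = 0.9986), whose product belongs to the enzyme that starts sphingolipid synthesis, the tetraspanin-like gene Tm4sf4 (0.9993) and Eva1a (0.9992). Sptssb went from 11.85, 11.96 and 11.70 to 7.15, 6.95 and 6.97, a difference of -4.81 ± 0.14 (adjusted p = 0.00111), and Tm4sf4 differed by -1.75 ± 0.11 (adjusted p = 0.00776). Eva1a had a miR-200 mean under the gauge and was at least 20.2-fold lower (adjusted p = 0.00323). For Aqp5 they were Flrt2 (0.9993), Rnf125 (0.9992) and Rab27b (0.9988). Flrt2 and Rnf125 had miR-200 means under the gauge and were at least 12.6-fold and 5.27-fold lower (adjusted p of 0.00389 and 0.00418), and Rab27b differed by -1.11 ± 0.11 (adjusted p = 0.0275). Tm4sf4 lost its call in 6 of 15 alternative settings and Rab27b in 8. In 2 groups of 3 arrays, a clean difference between the groups alone gives a high r: 192 genes exceeded 0.95 with Sftpb and 213 with Aqp5.

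**Figure D5:**
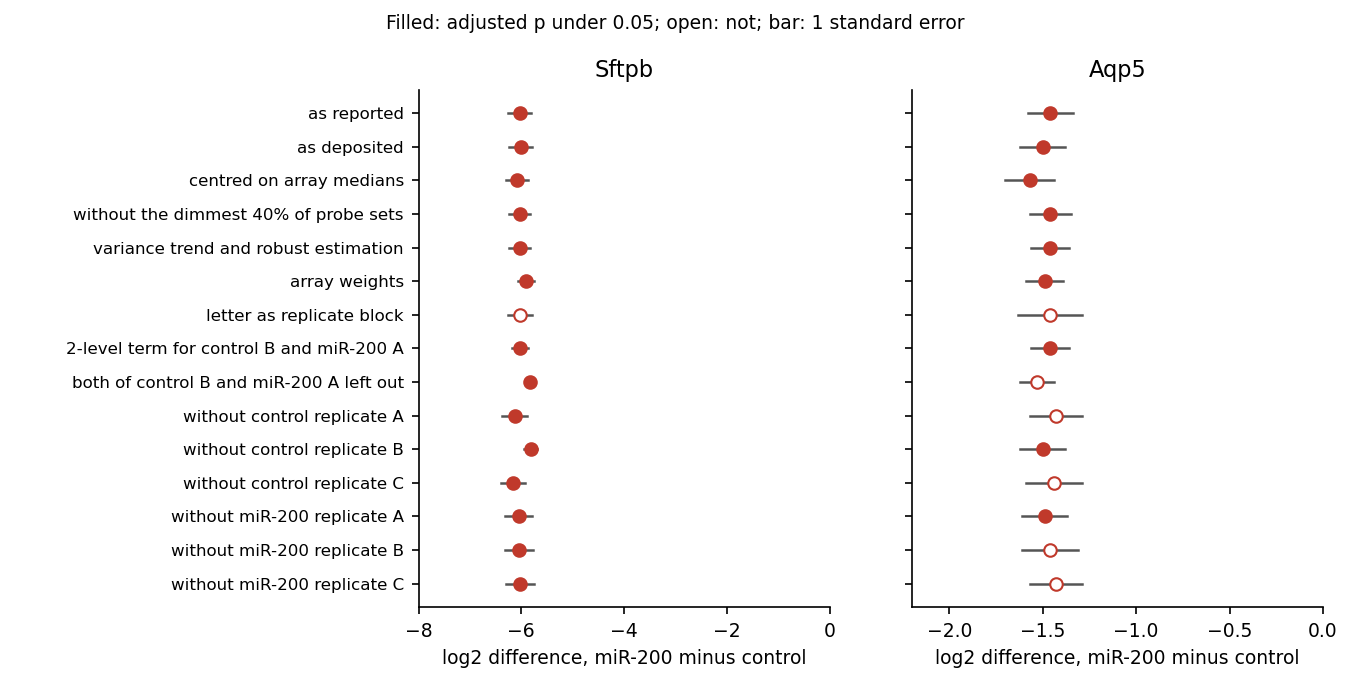
Log2 difference of Sftpb and Aqp5, miR-200 minus control, under the reported setting and 14 alternatives (bars, 1 standard error; filled points, adjusted p under 0.05). Sftpb stays between -6.16 and -5.82 and is open only with the replicate block; Aqp5 stays between -1.57 and -1.43 and is open in 6 settings.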

How the data were processed

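RNA from 3 control vector and 3 miR-200 cultures was hybridized, per the labels, to Affymetrix mouse arrays. The labels name the 430A 2.0 design, whereas the table holds 45101 probe sets. The values are log2 signals as deposited by the authors, and their summarisation and normalization are not given in the sources used here. Array interquartile ranges spanned 0.174, above a limit of 0.1, so arrays were quantile normalized (limma 3.58.1, R 4.3.3). Without 64 control probe sets, 45037 were fitted with lmFit and eBayes (two-sided). Of these, 34945 have 1 symbol in the platform annotation, 932 several and 9160 none. The brightest probe set stands for a gene. Members, lists and the arrays singled out were chosen with earlier results of these data known. Named genes are all members, 6 regulators (Foxa1, Foxa2, Gata6, Cebpa, Hnf4a and Sox2), each list's called genes and 2 largest differences without overlap, and the 3 genes most correlated with each called member. Of the list genes, 82 were analysed. The fit was tested on simulated data. With 3 arrays per group, precision is limited.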

Additional observations from a re-analysis of the deposited data

How the results depend on the processing

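Sftpb and Aqp5 kept their direction under all 15 alternatives. Sftpb lost its call only with the culture letter as a replicate block (-6.03, adjusted p = 0.115 in limma). Aqp5 lost it with the block (-1.46), without both control B and miR-200 A (-1.53) and without 4 single arrays, its difference ranging from -1.50 to -1.43 without 1 array. With the block 0 probe sets, 0 members and 0 list genes passed, while the unadjusted limma p was under 0.05 for 4280 probe sets. Deviations of same-letter arrays correlated at -0.58 (A), -0.67 (B) and 0.43 (C), so the letters are not shown to pair the cultures. Member calls numbered 1 without both arrays and from 1 to 2 without 1 array. The 335 probe sets called became 923 without the dimmest 40%, 951 with a variance trend and robust estimation together, 1291 with array weights, 946 with the 2-level term, 103 without both arrays, and from 32 (without control A) to 328 (without miR-200 A) without 1 array. The list genes called, 1 as reported, became 2 centred on array medians, 4 without the dimmest 40%, 5 with the variance trend and robust estimation, 7 with array weights, 6 with the 2-level term, 0 without both arrays, and 0 to 1 without 1 array.

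Changes of sign were limited to genes without a call in either setting. Napsa had -0.23 as the mean of its probe sets, and Sftpa1 0.14; Sftpa1 had 0.05 with array weights and 0.03 without both arrays, Lyz2 -0.18 with array weights, and Sftpd -0.01 centred on medians. Without 1 array the ranges were -0.52 to 0.09 (Sftpa1), -0.90 to 1.17 (Lyz2), -0.56 to 0.03 (Scgb1a1), -0.09 to 0.22 (Sftpd), -1.41 to 0.01 (Cebpa) and -0.16 to 0.01 (Foxa2). The cause was not tested. For the 4 members under the gauge, signal over background limits what can be seen.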
